A study of Mus musculus with 12 samples.

Results

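The genes described here are the mouse translation initiation factors and their regulators, taken as every protein-coding gene whose symbol starts with Eif followed by a digit from 1 to 6. This rule found 56 of the 34513 genes in the count table, among them the 4 kinases of eIF2alpha, the eIF4E-binding repressors and the subunits of eIF2, eIF2B and eIF3. Their levels were measured by bulk RNA-seq in Melan-A, B16F0 and B16F10 cells, each untreated or given SX-682, an antagonist of the chemokine receptors CXCR1 and CXCR2. The 6 groups held 2 libraries each, 12 in all. The study used these cultures to ask what the antagonist does to melanocytic cells without the stromal and immune cells of a tumor.

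Melan-A was labelled a nontumorigenic murine line, B16F0 a tumorigenic melanoma line and B16F10 its metastatic counterpart. The control libraries were labelled as having received no treatment, so no vehicle is named for them. The dose and duration of SX-682 for these libraries are not given in the sources used here. Each line is a single established culture, and the labels do not say that the 2 libraries of a group came from separate cultures. The p-values below therefore measure the spread between these libraries, which may be technical.

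Initiation of translation is the step at which a ribosome finds the start codon of an mRNA. The eIF4F complex, made of the cap-binding protein eIF4E, the scaffold eIF4G and the helicase eIF4A, recruits the mRNA, while eIF2 carries the initiator tRNA and eIF3 holds the small ribosomal subunit. Initiation is held back when an eIF2alpha kinase phosphorylates eIF2, which blocks its recycling by eIF2B, or when a 4E-BP repressor occupies eIF4E.

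Library totals ran from 48876982 to 85322092 counts. The 56 genes took 1.14% to 1.48% of the counts of a library. Levels are given as CPM, the counts of a gene as a part per 1e6 of the library total after TMM scaling, and a gene was called where edgeR's quasi-likelihood test gave a Benjamini-Hochberg adjusted p under 0.05 over the 18338 genes that passed a filter on low counts. Of the 56 genes, 53 passed it. Their median level over all libraries was 140 CPM, against 11.9 CPM for all genes tested. At least 5% of the 75-base stretches of 14 members also occur in another gene. At least 5% of the exonic bases lie opposite an exon of another gene for 9 members, and in a gene on the same strand for 2 members. Counts of all these are less certain.

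Markers of the labelled cell type were checked before the comparisons. Sox10, a transcription factor of the melanocyte lineage, stood at group means of 359 to 748 CPM in every group. The pigment genes set Melan-A apart from the B16 lines. Pmel, a melanosome protein, had group means of 8.11 and 8.0 CPM in untreated and treated Melan-A cells against 3930 to 5340 CPM in the B16 groups. Tyr, which encodes tyrosinase, was under 1 CPM in Melan-A and at 17.9 to 515 CPM in B16. The summed level of the 7 melanocyte markers was 1340 to 1370 CPM in Melan-A libraries and 14900 to 24500 CPM in B16 libraries, and within B16 it was lower with SX-682. Dct, Mlana, Tyrp1 and Mitf had means of 355, 116, 107 and 102 CPM in untreated Melan-A cells, each below both untreated B16 means. The low Pmel and Tyr go in part against the label of a melanocyte line, while these genes and Sox10 were expressed. The labels were kept as given. Of the 10 markers of other cell types, only Cd68 and Col1a1 reached 10 CPM in any library, and Krt5, Ptprc and Cdh5 stayed under 1 CPM throughout. The summed leukocyte markers, nearly all of it Cd68, were 16.2 CPM in both untreated Melan-A libraries and 44.1 and 45.4 CPM in the treated ones. Cxcr2 had 34 to 79 counts in Melan-A libraries and 0 or 1 count in B16 libraries, and Cxcr1 had at most 21 counts, so transcripts of the drug's targets were near or under a floor of 3 counts in the B16 lines. The part of these differences in the results below was not tested. In bulk RNA, fewer cells with a transcript and less of it per cell cannot be told apart.

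SX-682 moved members of this family in both directions. In Melan-A cells, 23 of the 53 tested genes rose and 17 fell, or 43.4% and 32.1%, while 23.4% and 24.7% of all genes tested did so. In B16F0 cells, 18 rose and 21 fell, against 25.1% and 25.0% of all genes. B16F10 cells had 24 higher and 21 lower, against 25.5% and 25.3%. Most of these changes were small. A change of at least 0.5 on the log2 scale was called upward for 2 genes and downward for 3 in Melan-A, against 8.30% and 8.0% of all genes. The same limit was passed by 3 and 6 genes in B16F0, against 10.2% and 9.22%, and by 7 and 7 in B16F10, against 11.4% and 10.1%. The shares of members past this limit ran from 3.77% to 13.2%, below those of all genes in Melan-A, on both sides of them in B16F0 and above them in B16F10. Members were more abundant than the tested genes at large, with 96.2% against 51.9% at 10 CPM or more. Shares among genes of like level were not computed, here or in the comparisons below.

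The median log2 fold change of the 53 genes was 0.07 in Melan-A and -0.02 in both B16 lines. Over all tested genes that had counts in the line, it was -0.0015, 0.0083 and 0.0192.

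In all 3 lines, 15 genes rose and 13 fell, against 11.3% and 11.7% of all genes tested. A further 3 were called in every line but not in a common direction, as were 4.93% of all genes. In the plot of all responses, most eIF3 subunits sit right of 0 while Eif4e, Eif4e2, Eif4g1 and Eif4g2 sit left of it.

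**Figure D1:**
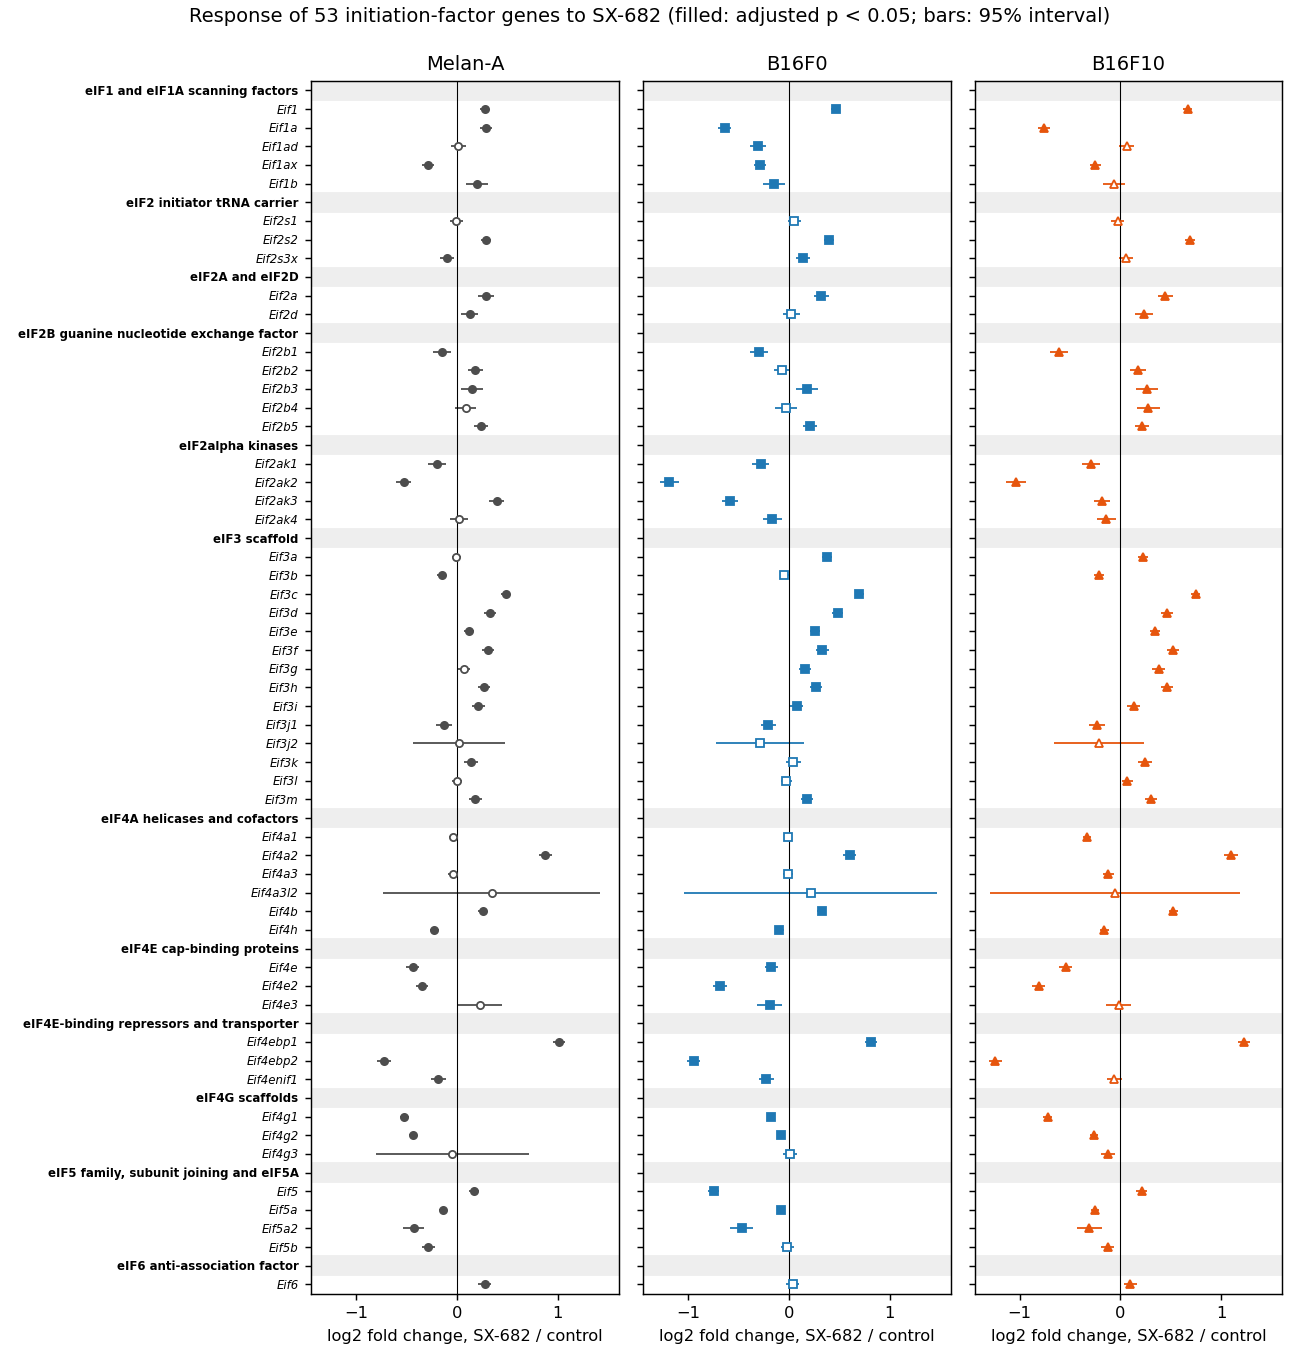
Log2 fold change between SX-682 and untreated libraries for the 53 tested genes, grouped by role, with 1 panel per line (2 libraries per group). Points are edgeR estimates with 95% intervals, filled where the adjusted p was under 0.05; Eif4ebp1 lies furthest right in every panel, and Eif4ebp2 and Eif2ak2 lie furthest left.

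The repressors of the cap-binding step parted. Eif4ebp1 (ENSMUSG00000031490.6) encodes 4E-BP1, which binds eIF4E and keeps eIF4G away until mTORC1 phosphorylates it. Eif4ebp1 stood at 87.3 and 91.2 CPM in untreated and 179 and 181 CPM in treated Melan-A cells, 153 and 156 against 266 and 279 CPM in B16F0 and 109 and 109.6 against 250.2 and 262 CPM in B16F10. Treated libraries lay above untreated ones in every line with no overlap. The log2 fold change was 1.01 ± 0.030 in Melan-A cells, 0.81 ± 0.030 for B16F0 and 1.23 ± 0.031 for B16F10 (SE, 2 against 2 libraries), with edgeR adjusted p of 1.69e-21, 1.07e-19 and 7.47e-24.

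Eif4ebp2 (ENSMUSG00000020091.15), the gene of the related repressor 4E-BP2, went the other way. Its libraries held 107 and 108 CPM in untreated and 65.8 and 64.1 CPM in treated Melan-A cells, 287 and 280.4 against 153 and 142 CPM in B16F0 and 281 and 286 against 122 and 118 CPM in B16F10. Every treated library was below every untreated library of its line, and the treated B16 libraries remained above untreated Melan-A. The log2 fold change was -0.73 ± 0.034 in Melan-A cells, -0.94 ± 0.031 for B16F0 and -1.24 ± 0.032 for B16F10, with edgeR adjusted p of 3.38e-17, 1.26e-20 and 1.52e-23. Levels per kilobase were taken over the merged exons of a gene, so comparisons between genes rest on that annotated length. As a ratio of such levels, Eif4ebp1 over Eif4ebp2 was 2.19 ± 0.048 without and 7.30 ± 0.20 with SX-682 in Melan-A (SD, n = 2). It was 1.44 ± 0.044 and 4.88 ± 0.43 for B16F0, and 1.02 ± 0.0092 and 5.63 ± 0.32 for B16F10. These ratios were picked after the counts had been seen.

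The third repressor, Eif4ebp3, had 0 to 7 counts in a library and was not tested. AC115631.1 overlaps 67.3% of its exonic bases on the same strand and shares 64.2% of its 75-base stretches. How reads in such an overlap were counted is not given in the sources used here, so these low counts do not show absence. Eif4enif1 encodes 4E-T, which carries eIF4E into the nucleus and to sites of mRNA decay. It fell in Melan-A and B16F0, with log2 fold changes of -0.19 and -0.22, and had -0.06 in B16F10 with an adjusted p of 0.204 in edgeR.

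Of the cap-binding proteins, Eif4e and Eif4e2 fell in every line. Eif4e, which encodes the major cap-binding protein, was at 157 and 156 CPM in untreated and 116 and 115 CPM in treated Melan-A cells, 154 and 161 against 140.4 and 139 CPM in B16F0 and 157 and 165 against 108 and 113 CPM in B16F10. Treated values were lower in each line, and the gap was narrowest in B16F0. The log2 fold change was -0.44 ± 0.031 in Melan-A cells, -0.17 ± 0.031 for B16F0 and -0.54 ± 0.032 for B16F10, and the difference between B16F10 and B16F0 was -0.37 ± 0.044 (adjusted p 1.08e-07, edgeR).

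Eif4e2 encodes 4EHP, a cap-binding protein that does not bind eIF4G and acts in repression. Its levels were 144 and 146 CPM in untreated and 111 and 117 CPM in treated Melan-A cells, 119.8 and 118 against 74.01 and 74.3 CPM in B16F0 and 166 and 167 against 93.3 and 96.7 CPM in B16F10. All treated libraries lay under their controls, and the log2 fold change was -0.35 ± 0.031 in Melan-A cells, -0.68 ± 0.033 for B16F0 and -0.81 ± 0.032 for B16F10. The mean B16 response was below that of Melan-A by 0.40 on the log2 scale (adjusted p 9.18e-10, edgeR).

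Eif4e3, a further cap-binding paralog, separated the lines more than the treatment did. It had 2.83 and 3.04 CPM in untreated and 3.03 and 3.84 CPM in treated Melan-A cells, 36.8 and 36.7 against 32.5 and 32.1 CPM in B16F0 and 33.5 and 35.1 against 32.8 and 34.97 CPM in B16F10. In B16F0 it fell by 0.19 on the log2 scale, a call that was lost without B16F0 control replicate 1, where the value was -0.19 with an adjusted p of 0.0516 in edgeR. Gm20696 overlaps 14.8% of the exonic bases of Eif4e3 on the same strand. Eif4e1b, an oocyte form, had 0 to 6 counts and was not tested.

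Of the eIF4G scaffolds, Eif4g1 and Eif4g2 fell in every line. Eif4g1 encodes the main scaffold that ties the cap complex to eIF3. Its libraries read 683 and 694 CPM in untreated and 479 and 479 CPM in treated Melan-A cells, 1228 and 1226 against 1071 and 1102 CPM in B16F0 and 1039 and 1052 against 640.0 and 626 CPM in B16F10. Treated values were lower in every line, least so in B16F0. The log2 fold change was -0.52 ± 0.021 in Melan-A cells, -0.17 ± 0.020 for B16F0 and -0.72 ± 0.021 for B16F10, and B16F10 fell further than B16F0 by 0.55 (adjusted p 5.84e-15, edgeR). Eif4g2, which encodes the cap-independent scaffold DAP5, had log2 values of -0.44, -0.07 and -0.26.

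Eif4g3 (ENSMUSG00000028760.16, chr4:137993022-138208508 on GRCm38) encodes a scaffold closely related to eIF4G1. Its counts were 10 and 20 in untreated and 10 and 14 in treated Melan-A libraries, against 6678 to 11309 in the 8 B16 libraries. In CPM, this was 0.116 and 0.220 in untreated Melan-A, 151 and 148 in untreated B16F0 and 123 and 124 in untreated B16F10. The Melan-A counts were above the floor of 3 counts, which covers counting error only. Carry-over of reads between libraries was not tested, so these counts do not establish expression of Eif4g3 in Melan-A. Its response to SX-682 was small beside the gap between lines, at -0.05, 0.01 and -0.12 on the log2 scale. It was called in B16F10 alone of the 3 tests (adjusted p 0.00394, edgeR). The test of any difference in response among lines gave an adjusted p of 0.0682.

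**Figure D2:**
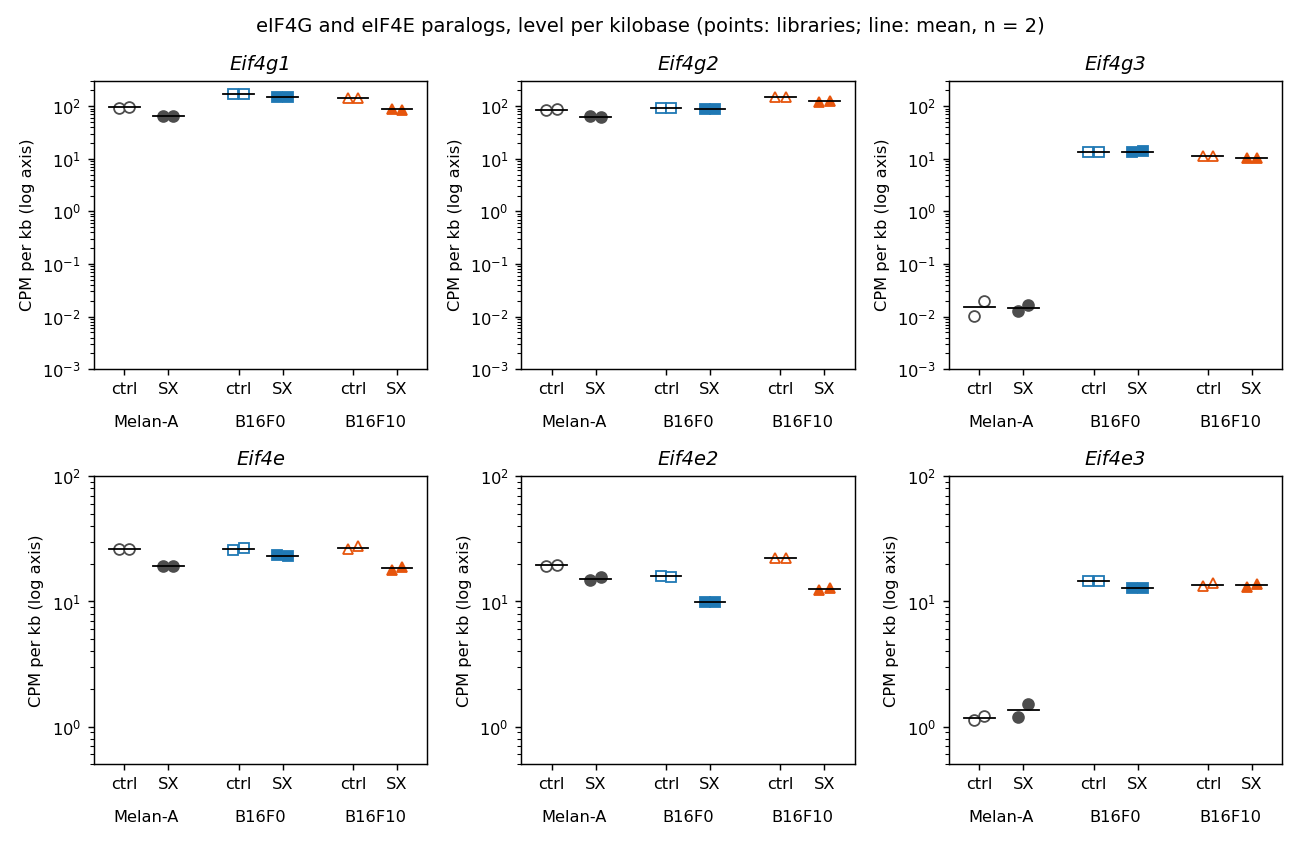
Levels of the eIF4G and eIF4E paralogs in CPM per kilobase of merged exons on a log axis, by line and treatment, with 1 point per library and the mean as a line (n = 2). Eif4g3 and Eif4e3 sit far lower in Melan-A than in both B16 lines, by a wider gap than in the panels of Eif4g1, Eif4g2, Eif4e and Eif4e2.

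The helicase paralogs diverged. Eif4a2 encodes a form of the RNA helicase that unwinds the mRNA leader. It stood at 119 and 113 CPM in untreated and 213 and 214 CPM in treated Melan-A cells, 222 and 224 against 347 and 331 CPM in B16F0 and 99.1 and 108 against 216 and 226 CPM in B16F10. Treated libraries were above controls in all lines without overlap, and the log2 fold change was 0.88 ± 0.033 in Melan-A cells, 0.61 ± 0.032 for B16F0 and 1.10 ± 0.034 for B16F10 (adjusted p 3.24e-19, 7.57e-16 and 1.64e-21, edgeR). Eif4a1, the more abundant helicase, read 954 and 932 CPM in untreated and 919.6 and 911 CPM in treated Melan-A cells, 789 and 774 against 778 and 776 CPM in B16F0 and 1126 and 1118 against 886 and 896 CPM in B16F10. It fell in B16F10 by 0.33 on the log2 scale, while its values of -0.04 in Melan-A and -0.01 in B16F0 did not pass the test. About 25.4% of the 75-base stretches of Eif4a1 transcripts also occur in another gene, mostly in the pseudogene Eif4a-ps4, so its counts are less certain than those of its paralog. For Eif4a2 this share was 6.26%.

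Per kilobase, Eif4a2 was 0.100 ± 0.0019 of Eif4a1 in untreated and 0.190 ± 0.0016 in treated Melan-A. That ratio was 0.232 ± 0.0044 and 0.354 ± 0.011 in B16F0, and 0.0748 ± 0.0047 and 0.202 ± 0.0047 in B16F10. Eif4a1 thus remained the more abundant of the pair in every group. Eif4a3, the helicase of the exon junction complex, changed little, with log2 values of -0.04, -0.01 and -0.12, of which only the B16F10 value was called. Of its near copies, Eif4a3l1 had 0 to 20 counts and was not tested, and Eif4a3l2 had 9 to 38 counts and no call.

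Cofactors of the helicase split. Eif4b, which stimulates eIF4A, rose in all lines, from 645 and 667 to 934 and 950.3 CPM in B16F10 where the change was widest, with log2 values of 0.26, 0.33 and 0.52. Eif4h, a related cofactor, fell in all lines by smaller amounts, -0.23, -0.09 and -0.16 on the same scale.

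More than 7 of the eIF3 genes rose in each line. This complex organises the small ribosomal subunit and has 14 genes here, counting both genes of subunit j. In Melan-A 8 rose and 2 fell, in B16F0 9 rose and 1 fell, and in B16F10 11 rose and 2 fell, with 7 higher and 1 lower in every line. Over all genes tested, the shares higher and lower were 23.4% and 24.7% for Melan-A, 25.1% and 25.0% for B16F0 and 25.5% and 25.3% for B16F10, and 11.3% and 11.7% in every line. Median log2 values of the 14 genes were 0.13, 0.17 and 0.27. Eif3c led them, with 375 and 370.4 CPM in untreated and 521 and 519.5 CPM in treated Melan-A cells, 489 and 494 against 788 and 809 CPM in B16F0 and 496 and 505 against 834 and 846 CPM in B16F10. Its treated and untreated libraries did not overlap, and the log2 fold change was 0.48 ± 0.021 in Melan-A cells, 0.70 ± 0.021 for B16F0 and 0.75 ± 0.021 for B16F10 (adjusted p 1.5e-17, 1.5e-21 and 2.15e-22, edgeR).

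Eif3f, a subunit of the non-core part of the complex, rose in every line, its libraries holding 142 and 149 CPM in untreated and 179.9 and 179.7 CPM in treated Melan-A cells, 208 and 207 against 254 and 270.1 CPM in B16F0 and 249 and 244 against 349 and 361 CPM in B16F10. The log2 fold change was 0.31 ± 0.030 in Melan-A cells, 0.33 ± 0.029 for B16F0 and 0.53 ± 0.029 for B16F10. Eif3d, a cap-contacting subunit, gave 0.33, 0.48 and 0.46, but 43.3% of its exonic bases are overlapped by Gm17638 on the opposite strand and the strand setting of the counting is not given in the sources used here. The core subunits Eif3a and Eif3b did not follow each other. Eif3a rose in both B16 lines (0.38 and 0.23) and Eif3b fell in Melan-A and B16F10 (-0.15 and -0.21). Eif3j1 fell in all lines, and it shares 35.01% of its 75-base stretches with Eif3j2, which had no call.

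**Figure D3:**
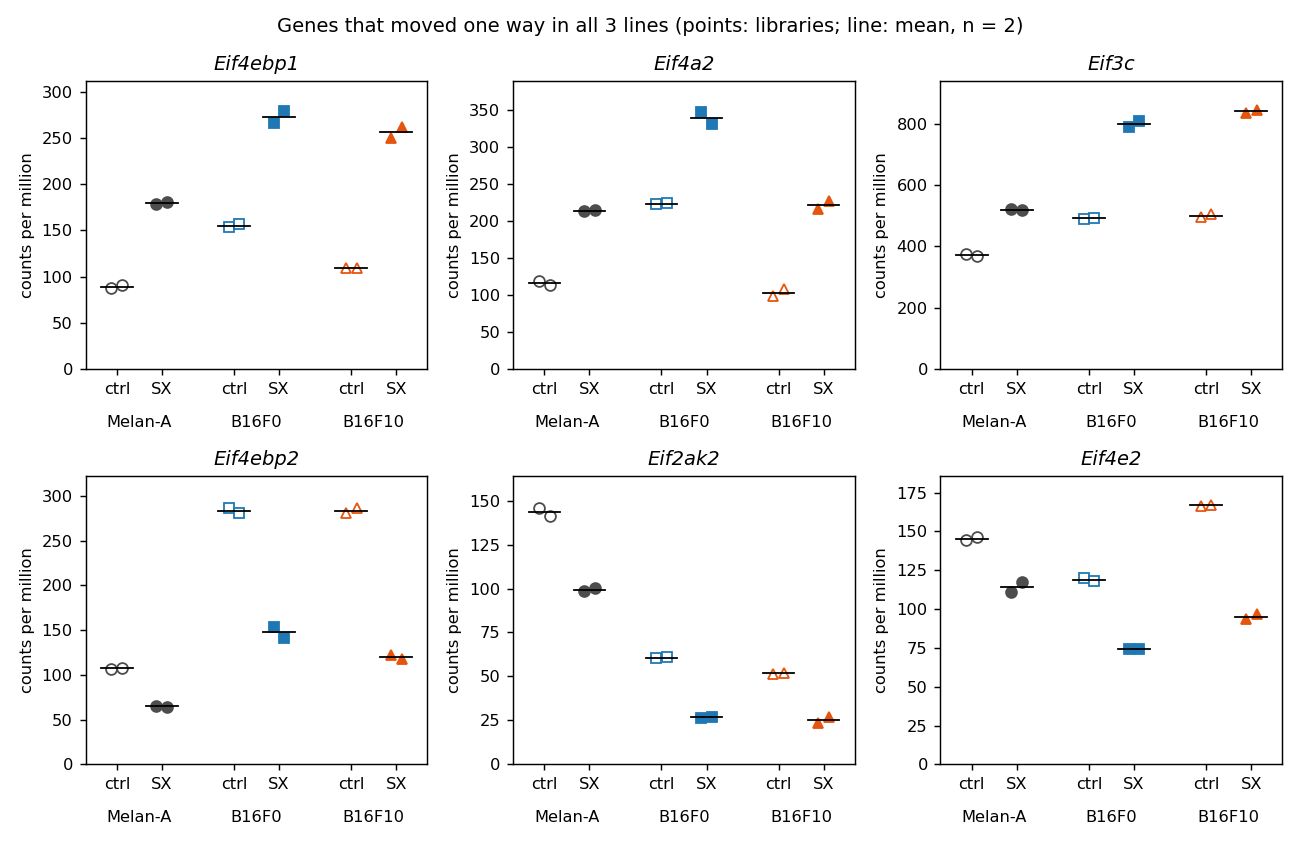
Levels in CPM of 6 genes that moved in a common direction in all 3 lines, with 1 point per library (open: untreated, filled: SX-682) and the mean as a line (n = 2). Treated and untreated libraries of a line do not overlap in any panel, which is a description of genes picked for calls in all 3 lines.

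The 4 eIF2alpha kinases respond to different stresses, and their transcripts were measured one by one. In Melan-A 1 rose and 2 fell, and all 4 fell in each B16 line, against 24.7%, 25.0% and 25.3% of all genes that fell in the respective lines. Eif2ak2 encodes PKR, the kinase activated by double-stranded RNA. Its libraries held 146 and 141 CPM in untreated and 98.5 and 100.3 CPM in treated Melan-A cells, 60.5 and 60.9 against 26.3 and 27.2 CPM in B16F0 and 51.7 and 52.01 against 23.5 and 27.1 CPM in B16F10. All treated libraries were below their controls, and the log2 fold change was -0.53 ± 0.038 in Melan-A cells, -1.18 ± 0.047 for B16F0 and -1.04 ± 0.048 for B16F10 (adjusted p 8.35e-13, 7.01e-19 and 1.88e-17, edgeR). The mean fall in B16 cells exceeded that in Melan-A by 0.58 on the log2 scale (adjusted p 1.31e-10, edgeR), and B16F10 against B16F0 differed by 0.15 (interval 0.01 to 0.29, adjusted p 0.104, edgeR).

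Eif2ak1 encodes HRI, the kinase for heme shortage and mitochondrial stress. It was at 36.95 and 36.2 CPM in untreated and 31.2 and 32.8 CPM in treated Melan-A cells, 54.9 and 55.1 against 44.2 and 46.5 CPM in B16F0 and 65.2 and 62.6 against 52.00 and 52.3 CPM in B16F10. Each treated pair was under its controls, by log2 values of -0.19, -0.28 and -0.29. Eif2ak4 encodes GCN2, which senses uncharged tRNA. It gave 38.98 and 38.1 CPM in untreated and 39.97 and 38.3 CPM in treated Melan-A cells, 50.95 and 53.5 against 47.6 and 45.7 CPM in B16F0 and 37.3 and 37.9 against 33.7 and 34.6 CPM in B16F10. The treated B16 libraries lay under their controls, with called log2 values of -0.16 and -0.14, whereas in Melan-A the libraries overlapped (0.02, adjusted p 0.729, edgeR). The B16F0 call was lost without control replicate 2 (adjusted p 0.0605), and the B16F10 call without control replicate 2 (0.0639) or SX-682 replicate 1 (0.0814), in edgeR.

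Eif2ak3 encodes PERK, the kinase of the endoplasmic reticulum, and was called in opposite directions. Its levels were 67.8 and 65.1 CPM in untreated and 88.5 and 86.1 CPM in treated Melan-A cells, 96.7 and 97.5 against 67.2 and 62.2 CPM in B16F0 and 104 and 109.9 against 92.8 and 96.1 CPM in B16F10. Treated Melan-A libraries were higher and treated B16 libraries lower than their controls. The log2 fold change was 0.39 ± 0.037 in Melan-A cells, -0.58 ± 0.039 for B16F0 and -0.18 ± 0.037 for B16F10, with a B16 minus Melan-A difference of -0.78 ± 0.046 (adjusted p 3.06e-14, edgeR). B16F10 and B16F0 also differed, by 0.40 (adjusted p 7.9e-07, edgeR).

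The substrate of these kinases changed little. Eif2s1, the gene of eIF2alpha itself, stood at 142 and 132 CPM in untreated and 136 and 137 CPM in treated Melan-A cells, 214 and 220.3 against 221 and 230.5 CPM in B16F0 and 158 and 157 against 153 and 157 CPM in B16F10. Treated and untreated libraries overlapped in Melan-A and lay next to each other in both B16 lines. None of its log2 values, -0.01, 0.05 and -0.03, passed the test, with intervals of -0.07 to 0.06, -0.01 to 0.12 and -0.09 to 0.04.

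Eif2s2, the gene of eIF2beta, rose. It held 211 and 206 CPM in untreated and 256 and 255 CPM in treated Melan-A cells, 432 and 436 against 564 and 582 CPM in B16F0 and 271 and 273 against 446 and 433 CPM in B16F10. No treated library overlapped its controls, and the log2 fold change was 0.29 ± 0.024 in Melan-A cells, 0.40 ± 0.024 for B16F0 and 0.69 ± 0.024 for B16F10. The rise was wider in B16F10 than in B16F0 by 0.29 (adjusted p 6.55e-08, edgeR). Eif2s2 shares 7.92% of its 75-base stretches with Gm9892. Eif2s3x, the X-linked gene of eIF2gamma, had small opposite calls of -0.10 in Melan-A and 0.14 in B16F0. The Melan-A call was lost without control replicate 1 (-0.03, adjusted p 0.576), SX-682 replicate 1 (-0.09, 0.0934) or SX-682 replicate 2 (-0.08, 0.134) in edgeR, and 34.2% of its 75-base stretches are shared with Gm2223.

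Among the 5 subunits of eIF2B, which recharges eIF2 with GTP, Eif2b1 fell and Eif2b3 and Eif2b5 rose in every line. Eif2b1 encodes the alpha subunit and read 47.4 and 44.5 CPM in untreated and 42.2 and 40.6 CPM in treated Melan-A cells, 58.3 and 62.3 against 48.5 and 49.7 CPM in B16F0 and 69.1 and 67.5 against 45.2 and 44.2 CPM in B16F10. Its log2 fold change was -0.15 ± 0.043 in Melan-A cells, -0.30 ± 0.044 for B16F0 and -0.61 ± 0.044 for B16F10. The treated libraries were lower in each line, although the Melan-A call was lost without control replicate 1 (-0.10, adjusted p 0.132) or SX-682 replicate 2 (-0.11, 0.103) in edgeR. Eif2b5, the catalytic epsilon subunit, rose by 0.24, 0.21 and 0.22, and Eif2b3, the gamma subunit, by 0.15, 0.18 and 0.26. Eif2b2 and Eif2b4, the beta and delta subunits, had log2 values of 0.18, -0.07 and 0.17 and of 0.09, -0.03 and 0.28, with no call in B16F0 for either and none in Melan-A for Eif2b4. Outside eIF2 proper, Eif2a, which can deliver initiator tRNA without GTP, rose from 53.3 and 55.7 to 72.6 and 75.9 CPM in B16F10 and gave log2 values of 0.29, 0.32 and 0.45 over the lines.

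Start codon scanning factors also moved apart. Eif1, which guards start codon choice, had 475 and 482 CPM in untreated and 580.2 and 577 CPM in treated Melan-A cells, 488 and 499 against 670.4 and 694 CPM in B16F0 and 380.0 and 383 against 609 and 604 CPM in B16F10. Treated libraries were higher in all lines with no overlap, and the log2 fold change was 0.27 ± 0.022 in Melan-A cells, 0.47 ± 0.022 for B16F0 and 0.67 ± 0.022 for B16F10. The rise was wider in B16F10 than in B16F0 by 0.20 (adjusted p 8.06e-06, edgeR). Eif1 shares 15.3% of its 75-base stretches with other genes, so its counts are less certain.

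Eif1a and Eif1ax encode forms of eIF1A, the partner of eIF1 in scanning. Eif1a stood at 144 and 139 CPM in untreated and 174 and 173 CPM in treated Melan-A cells, 119 and 118 against 75.4 and 76.8 CPM in B16F0 and 151 and 157 against 89.9 and 92.02 CPM in B16F10. The treated libraries were above the controls in Melan-A and below them in both B16 lines. Its log2 fold change was 0.29 ± 0.029 in Melan-A cells, -0.63 ± 0.032 for B16F0 and -0.76 ± 0.031 for B16F10, and the B16 minus Melan-A difference was -0.98 ± 0.037 (adjusted p 6.19e-19, edgeR). Eif1ax, the X-linked form, read 179 and 172 CPM in untreated and 146 and 142 CPM in treated Melan-A cells, 157 and 156 against 125 and 131 CPM in B16F0 and 278 and 279 against 233 and 235 CPM in B16F10. It fell in every line by nearly equal log2 values of -0.29, -0.29 and -0.25, and the test of any difference among lines gave an adjusted p of 0.63. Per kilobase, Eif1a over Eif1ax went from 1.02 ± 0.0026 to 1.53 ± 0.028 in Melan-A and from 0.699 ± 0.018 to 0.491 ± 0.0052 in B16F10 (SD, n = 2).

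Eif5, the GTPase activator that completes start codon recognition, singled out B16F0. Its libraries held 224 and 226 CPM in untreated and 252 and 254 CPM in treated Melan-A cells, 394 and 406 against 242 and 235 CPM in B16F0 and 311 and 319.7 against 361 and 368 CPM in B16F10. Treated libraries were higher in Melan-A and B16F10 and lower in B16F0, with no overlap within a line. The log2 fold change was 0.17 ± 0.025 in Melan-A cells, -0.75 ± 0.025 for B16F0 and 0.21 ± 0.025 for B16F10, and B16F10 differed from B16F0 by 0.95 ± 0.035 (adjusted p 1.82e-18, edgeR).

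**Figure D4:**
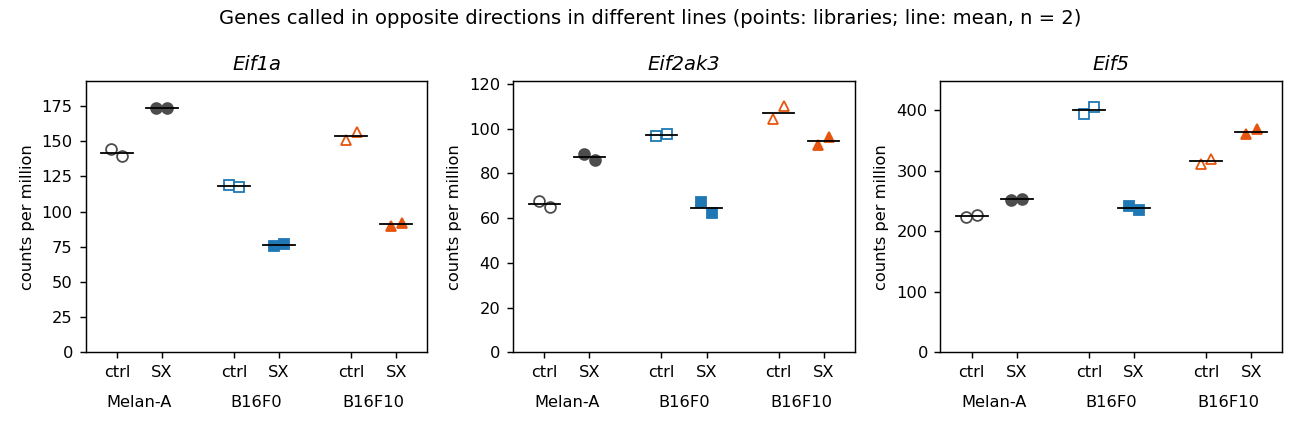
Levels in CPM of Eif1a, Eif2ak3 and Eif5 by line and treatment, with 1 point per library (open: untreated, filled: SX-682) and the mean as a line (n = 2). Eif1a and Eif2ak3 are higher with SX-682 in Melan-A and lower in both B16 lines, and Eif5 is lower with SX-682 in B16F0 alone.

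Eif5a and Eif5a2 fell in every line. Eif5a, the hypusine-bearing factor that eases peptide bond formation, was the most abundant of the 56 genes per kilobase in each untreated line, with means of 341 CPM per kilobase in Melan-A, 468 in B16F0 and 460 for B16F10. It had 813 and 808 CPM in untreated and 739.8 and 729 CPM in treated Melan-A cells, 1125 and 1098 against 1062 and 1052 CPM in B16F0 and 1085 and 1102 against 913 and 925 CPM in B16F10. The treated libraries were slightly lower, by log2 values of -0.14, -0.07 and -0.25, and the B16F0 call was lost without control replicate 1 (-0.06, adjusted p 0.0546, edgeR). Eif5a2, its scarce paralog, had 39.8 and 39.1 CPM in untreated and 28.7 and 29.9 CPM in treated Melan-A cells, 32.7 and 32.4 against 24.2 and 22.8 CPM in B16F0 and 20.01 and 19.8 against 15.3 and 16.8 CPM in B16F10. Its log2 fold change was -0.43 ± 0.051 in Melan-A cells, -0.47 ± 0.055 for B16F0 and -0.31 ± 0.061 for B16F10. Eif5b, the GTPase of subunit joining, fell in Melan-A and B16F10 and had no call in B16F0, with log2 values of -0.28, -0.01 and -0.13.

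Eif6, which keeps the large ribosomal subunit free until joining, rose in Melan-A from 97.01 and 99.2 to 120.0 and 117 CPM, a log2 value of 0.27. Its B16 values were 0.04 and 0.10. The B16F10 call was lost without control replicate 1 or SX-682 replicate 2, where the value was 0.07 both times.

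Whether the responses themselves differed between lines was tested directly. Any difference among the 3 lines was called for 42 of the 53 genes, or 79.2%, against 47.4% of all genes tested. Members had a median of 140 CPM against 11.9 CPM for all genes, and the part of level in this share was not tested. The mean B16 response differed from that of Melan-A for 30 genes, against 35.8%, and B16F10 differed from B16F0 for 30 genes, against 30.3%. Opposite calls in different lines occurred for Eif1a, Eif2ak3, Eif5, Eif1b and Eif2s3x. Those of Eif1b were small, at log2 values of 0.20 in Melan-A and -0.14 in B16F0. The Melan-A call of Eif2s3x was lost on leaving out single libraries, as given above. The share of all genes with such calls was not computed. The 3 genes with no call in any line were Eif2s1, Eif3j2 and Eif4a3l2, against 5388 of all 18338 genes tested.

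Untreated cells of the 3 lines were compared as well. Against Melan-A, 42 of the 53 genes were higher and 7 lower in B16F0, while 35.3% and 40.6% of all genes were so. In B16F10, 37 were higher and 9 lower than in Melan-A, against 33.4% and 40.8%. Both comparisons used the same Melan-A libraries. The median difference of the 53 genes was 0.45 and 0.37 on the log2 scale, and over all tested genes with counts in the libraries compared it was -0.06 and -0.10.

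All 14 eIF3 genes were higher in untreated B16F0 than in Melan-A and 12 were higher in B16F10. Over all genes tested, 35.3% and 33.4% were higher. Among the 14, Eif3j2 shares 87.4% of its 75-base stretches with Eif3j1, so the counts of the pair are not independent. The widest gap was that of Eif4g3, at log2 differences of 9.77 ± 0.080 for B16F0 and 9.50 ± 0.082 for B16F10, about 874-fold and 723-fold. Eif4e3 was also higher, by 3.65 ± 0.078 and 3.55 ± 0.079, as was Eif4ebp2, by 1.40 ± 0.031 and 1.40 ± 0.032. Eif2ak2 went the other way, at -1.24 ± 0.040 and -1.47 ± 0.041. Eif2s2 was higher in B16F0 by 1.06 and in B16F10 by 0.38.

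Between the B16 lines, 13 genes were higher and 27 lower in B16F10, against 30.8% and 31.2% of all genes. Eif4a2 had the widest gap of these, at -1.11 ± 0.034, with 222 and 224 CPM in untreated B16F0 and 99.1 and 108 CPM in untreated B16F10. With SX-682, B16F10 reached 216 and 226 CPM, next to the untreated B16F0 values.

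Genes that work with these factors were read from lists chosen with earlier results of these data known, so their counts are descriptions. Partners of the stress kinases, which include the transcription factor Atf4 and its targets, made up the first. Of 19 genes, 10 rose and 3 fell in Melan-A, 15 rose and 3 fell in B16F0, and 15 rose and 2 fell in B16F10, with 10 higher and 1 lower in every line. Over all genes, Melan-A had 23.4% higher and 24.7% lower, B16F0 25.1% and 25.0% and B16F10 25.5% and 25.3%, with 11.3% and 11.7% in every line. The median log2 values were 0.45, 0.64 and 0.76. Dnajc3 was lower in every line, with 110.5 and 112.2 CPM in untreated and 79.75 and 78.46 CPM in treated Melan-A cells. Its libraries held 205.6 and 197 against 118.5 and 111.2 CPM in B16F0 and 235.5 and 238.3 against 107.8 and 105.6 CPM in B16F10. Trib3, a pseudokinase induced downstream of Atf4, had 108 and 112 CPM in untreated and 327 and 321 CPM in treated Melan-A cells, 52.6 and 51.8 against 322 and 319 CPM in B16F0 and 11.1 and 9.94 against 325 and 326 CPM in B16F10. Treated libraries reached like levels in the 3 lines from unlike starting points, and the log2 fold change was 1.56 ± 0.029 in Melan-A cells, 2.62 ± 0.032 for B16F0 and 4.95 ± 0.040 for B16F10 (adjusted p 3.72e-26, 5.13e-31 and 1.43e-35, edgeR). Ddit3, which encodes the stress factor CHOP, had 49.8 and 47.2 CPM in untreated and 216 and 212 CPM in treated Melan-A cells, 71.7 and 73.4 against 288 and 316 CPM in B16F0 and 31.3 and 31.7 against 353 and 361 CPM in B16F10, and log2 values of 2.14, 2.05 and 3.50. These are RNA levels, and phosphorylation of eIF2alpha was not measured here.

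Regulators of the cap complex and mTOR made up a further list. Of 20 genes, 7 rose and 10 fell in Melan-A, 6 rose and 7 fell in B16F0, and 4 rose and 14 fell in B16F10, with median log2 values of -0.13, 0.02 and -0.13. The all-gene shares higher and lower were 23.4% and 24.7% for Melan-A, 25.1% and 25.0% for B16F0 and 25.5% and 25.3% for B16F10. Ddit4, which encodes the mTORC1 inhibitor REDD1, had 226 and 213 CPM in untreated and 287 and 286 CPM in treated Melan-A cells, 195 and 186 against 347 and 336 CPM in B16F0 and 94.8 and 95.5 against 375 and 373 CPM in B16F10. Its treated libraries were higher in each line, by 0.38, 0.84 and 1.97 on the log2 scale. Ncbp2, the small subunit of the nuclear cap-binding complex, had 58.4 and 58.8 CPM in untreated and 38.6 and 38.7 CPM in treated Melan-A cells, 63.3 and 62.2 against 29.5 and 31.3 CPM in B16F0 and 89.9 and 87.4 against 42.4 and 44.6 CPM in B16F10. It fell by log2 values of -0.60, -1.05 and -1.03.

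Promoters of the family were compared by their letters. RefSeq windows of 300 bases (GRCm38.p6), reaching from 250 bases before to 50 after a transcript start, were at hand for 43 of the 56 genes, 56 windows in all, and several windows of a gene overlap. Genes without a window, which were not searched, were Eif4ebp1, Eif1a, Eif2b3, Eif3e, Eif3h, Eif3i, Eif3j2, Eif4a3l2, Eif4e1b, Eif4e3, Eif4ebp3, Eif4g2 and Eif6. The E-box CACGTG, which reads the same on both strands and is known as the site of factors such as MYC and MITF, occurred in windows of 10 genes. Of the 56 windows, 21.4% held it, against 7.15% of all 32851 mouse windows and 9.34% of the 15682 windows of tested genes. The letters TGATGNAA, a form of the site of ATF4 with C/EBP, searched on both strands, occurred in 1 window, that of Eif2s3x, or 1.79%, against 3.97% of all windows and 2.36% of those of tested genes. The stretches below lie upstream of a RefSeq transcript start, which for Eif4g1, Eif4h and Eif5a is a start inside the gene, and overlap no annotated exon. They are shown because the E-box in capitals is what these genes share (strand of the gene, 5′ to 3′).

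Eif3f, chr7:108934290-108934409, plus strand: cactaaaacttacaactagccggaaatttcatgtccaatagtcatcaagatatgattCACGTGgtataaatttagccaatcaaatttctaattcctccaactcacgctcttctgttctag
Eif3k, chr7:28981889-28981989, minus strand: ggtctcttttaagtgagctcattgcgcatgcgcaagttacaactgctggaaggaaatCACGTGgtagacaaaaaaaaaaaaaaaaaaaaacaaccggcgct
Eif4a1, chr11:69672550-69672669, minus strand: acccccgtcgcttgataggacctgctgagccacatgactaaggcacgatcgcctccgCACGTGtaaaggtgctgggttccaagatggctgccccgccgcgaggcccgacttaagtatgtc
Eif4g1, chr16:20672616-20672722, plus strand: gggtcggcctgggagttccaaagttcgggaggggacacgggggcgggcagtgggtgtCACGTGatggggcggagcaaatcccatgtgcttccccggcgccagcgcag
Eif4h, chr5:134639491-134639562, minus strand: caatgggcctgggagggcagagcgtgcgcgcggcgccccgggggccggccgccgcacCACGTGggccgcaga
Eif5a, chr11:69921398-69921517, minus strand: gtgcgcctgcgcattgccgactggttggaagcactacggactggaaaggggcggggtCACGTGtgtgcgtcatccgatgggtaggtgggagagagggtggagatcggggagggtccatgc

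The E-box began 68 bases before the start of Eif3f, 44 before that of Eif3k and 189 before that of Eif4a1. It began 54 bases before an internal start of Eif4g1, 96 before an internal start of Eif4h, and 74 and 185 before internal starts of Eif5a. The other genes with it were Eif1b, Eif3a, Eif4e and Eif5a2. Of the 10, Eif3f rose and Eif4e, Eif4g1, Eif4h, Eif5a and Eif5a2 fell with SX-682 in all lines. Of the 53 tested members, 28.3% rose and 24.5% fell in all lines, against 11.3% and 11.7% of all genes tested. The letters thus went with calls in both directions, upward in all lines for Eif3f alone. A match describes letters, and binding was not measured in these files.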

How the data were processed

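RNA was extracted from cultures with a column kit, and per the labels libraries followed standard Illumina protocols. The submitters' processing notes name cutadapt, STAR, DESeq2 and the build mm10. The authors deposited whole-number counts per gene, not normalized, for 34513 genes in 12 libraries. The counting program and its strand setting are not given in the sources used here. All 56 members had the coordinates and exonic length of GENCODE M21.

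Counts were analysed in R 4.3.3 with edgeR 4.0.16 (filterByExpr, TMM, quasi-likelihood fit of all 6 groups without a block, prior count 0.125). SE is the log2 fold change over the root of F, and intervals are 95%. An exact permutation of 2 against 2 libraries cannot go under a 2-sided p of 0.333, so none was used. Lack of overlap between 2 and 2 libraries is therefore given as a description, and its share over all genes was not computed. Alternatives were RLE scaling, DESeq2 1.42.0, other filters, a prior count of 2, separate fits and leaving out each library. The script was tested on simulated data, where limits on the share of changed genes recovered failed and were loosened after the output was seen, to apply to abundant genes only, so recovery of less abundant genes fell short of them. Floors and intervals cover counting error or library spread only.

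Members and gene lists were chosen with earlier results of these data known. Members named with values were those called with a change of at least 0.5 log2, the member of each role group with the widest mean change, the kinases, repressors and paralogs, those not tested, those differing by at least 1 log2 between untreated lines, and 2 genes of each list. Others were named after their values were seen, as were the paralog ratios, the 75-base length and the genomic neighbours.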

Additional observations from a re-analysis of the deposited data

Results flagged for a closer look

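A test of any difference in the SX-682 response among the 3 lines passed an adjusted p of 0.05 in edgeR for 24 of the 29 named members that were tested, against 47.4% of all genes tested. Many of these were named for the size of their response, so this count is a description. The values here are the range of the log2 fold change over the lines, the highest minus the lowest. The range was 1.05 for Eif1a, 0.98 for Eif2ak3 and 0.95 for Eif5, which were called in opposite directions. It was 0.66 for Eif2ak2, 0.55 for Eif4g1, 0.52 for Eif4ebp2, 0.49 for Eif4a2, 0.46 for Eif4e2 and 0.46 for Eif2b1.

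Narrower ranges were 0.42 for Eif4e3, 0.41 for Eif4ebp1, 0.40 for Eif2s2, 0.39 for Eif1, 0.37 for Eif4e, 0.32 for Eif4a1, 0.27 for Eif4b and 0.27 for Eif3c. The smallest that passed were 0.24 for Eif2s3x, 0.23 for Eif6, 0.22 for Eif3f, 0.18 for Eif2ak4, 0.18 for Eif5a, 0.16 for Eif2a and 0.11 for Eif4a3. The adjusted p of these last genes went up to 0.0334.

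The 8 genes named from the pathway lists, picked for wide responses, passed as well. The range was 3.39 for Trib3, 1.59 for Ddit4, 1.45 for Ddit3 and 0.68 for Gtpbp2, and 0.45 for Ncbp2, 0.44 for Eef1akmt1, 0.41 for Bzw1 and 0.28 for Ddx3x. Groups of 2 libraries are too small for a test of single outlying libraries, and none was made.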

How the results depend on the processing

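Each count of called members stayed within 1.5 times its value under every alternative run, all of them planned, and no named gene changed direction in a call. Over the alternatives, members called higher and lower with SX-682 were 22 to 25 and 14 to 18 in Melan-A, 17 to 19 and 19 to 21 in B16F0, and 22 to 24 and 20 to 21 in B16F10. Any difference among lines was called for 36 to 43 members. Same-numbered libraries of a line did not deviate together (correlations of -0.00482, -0.0325 and -0.00806), so the numbers were not read as pairs. With the replicate block, B16F10 differed from B16F0 for 31 rather than 30 members, and every other count was as without it. Of 2433 recomputed values of named genes, 12 lost a call, all on leaving out a library, and 6 gained one.

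Those that gained a call were Eif4a1 in Melan-A without control replicate 2 (adjusted p 0.041), Eif4e3 in Melan-A with DESeq2 (0.0461), with at least 10 counts in every library (0.0483) and without SX-682 replicate 1 (0.00674), and Eif2s1 in B16F0 with at least 10 counts in every library (0.0492) and without SX-682 replicate 1 (0.0401), in edgeR unless named. Leaving out a library left a group with 1 library, assumed to vary like the others. With 2 libraries per group, small changes rest on few degrees of freedom.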

Other observations

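Factors next to initiation were measured in the same libraries, from lists likewise chosen with earlier results of these data known. Of 20 elongation and termination factors, 9 rose and 4 fell in Melan-A, 8 rose and 8 fell in B16F0, and 7 rose and 8 fell in B16F10, with median log2 values of 0.07, 0.05 and -0.09. Of all genes tested, 23.4% rose and 24.7% fell in Melan-A, 25.1% and 25.0% in B16F0 and 25.5% and 25.3% in B16F10. Gtpbp2, a ribosome rescue GTPase, had 71.5 and 69.01 CPM in untreated and 136 and 138 CPM in treated Melan-A cells, 122 and 121 against 265 and 260.5 CPM in B16F0 and 44.5 and 46.7 against 142 and 143 CPM in B16F10. It rose in every line, by log2 values of 0.96, 1.11 and 1.64. Eef1akmt1, a lysine methyltransferase of eEF1A, had 8.22 and 7.67 CPM in untreated and 4.42 and 4.37 CPM in treated Melan-A cells, 22.00 and 22.2 against 11.1 and 11.4 CPM in B16F0 and 22.2 and 21.9 against 8.94 and 9.10 CPM in B16F10. It fell by log2 values of -0.85, -0.98 and -1.29.

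Of 16 tested initiation helpers outside the Eif names, 6 rose and 7 fell in Melan-A, 6 rose and 6 fell in B16F0, and 9 rose and 7 fell in B16F10, with median log2 values of -0.02, 0.08 and 0.30, beside the same shares of all genes. Ddx3x, a helicase for structured mRNA leaders, had 459.9 and 440.3 CPM in untreated and 255 and 250.5 CPM in treated Melan-A cells, 523 and 529 against 248 and 240.3 CPM in B16F0 and 494 and 518 against 234 and 234 CPM in B16F10. Every treated library was far below its controls, and the log2 fold change was -0.83 ± 0.026 in Melan-A cells, -1.11 ± 0.026 for B16F0 and -1.11 ± 0.027 for B16F10. Bzw1, which competes with eIF5 for eIF2, had 484 and 472 CPM in untreated and 345 and 338 CPM in treated Melan-A cells, 382 and 382 against 227 and 209 CPM in B16F0 and 539 and 549 against 292 and 294 CPM in B16F10. It fell by log2 values of -0.48, -0.81 and -0.89.

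The low level of Eif4g3 in Melan-A was set beside its nearest protein-coding neighbours on chromosome 4. Ece1, which lies 27793 bases before it, was at 71.9 CPM in untreated Melan-A and at 0.525 and 0.456 CPM in untreated B16F0 and B16F10. Hp1bp3, 7788 bases after it, stood at 277, 180 and 225 CPM. Sh2d5, 41895 bases after it, was low in every line, at 0.157, 0.362 and 0.367 CPM. The nearest protein-coding gene on each side was thus higher in untreated Melan-A than in either untreated B16 line, by these group means.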
